A study of Mus musculus with 6 samples.

Results

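Semaphorins, plexins and neuropilins were read out in 3 mouse melanoma lines as the mRNA level of every gene of these families. The members were the genes of the deposited expression table with a symbol of the Sema3 to Sema7, Plxna to Plxnd or Nrp series. This gave 31 of the 23951 genes listed, made up of 20 semaphorins, 9 plexins and 2 neuropilins. The parental line B16-F1 metastasizes poorly in mice and was obtained from a cell repository. B16-F1R2 was grown out of a lymph node metastasis and B16-F1R2L out of a lung metastasis that itself descended from a lymph node metastasis. Both variants came from another laboratory, so the line and its source cannot be told apart. All 3 lines were cultured in 1 medium with serum, glutamine and gentamicin and received no treatment. Each line is represented by 2 libraries of polyadenylated RNA, numbered 1 and 2, and nothing states whether they came from separate cultures, so p-values measure only the spread between these libraries.

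Semaphorins are secreted or membrane-bound ligands first known for steering growing axons, and plexins are their signalling receptors. Class 3 semaphorins are secreted and most of them bind a neuropilin, which has a short cytoplasmic tail and hands the signal on to a plexin partner, whereas class 4, 5, 6 and 7 semaphorins are held at the membrane and bind plexins directly. The cytoplasmic part of a plexin inactivates small GTPases and changes actin and integrin adhesion. Neuropilins also bind vascular endothelial growth factors, and both melanocytes and melanoma cells descend from the neural crest, whose migration semaphorins guide.

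Before the levels, the start regions of 4 genes that differed between the lines are shown, a pair that was higher and a pair that was lower in both variants. The sequences are the 250 bases before the start site in the RefSeq promoter table of build GRCm38.p6, and each was found at a single place in NCBIM37 (mm9), the build of the deposited values. Capitals mark the GC box GGGCGG on either strand, a binding motif of the Sp family of transcription factors. Plxnd1 lies on the minus strand at chr6:115945024-115945273, Plxnc1 on the minus strand at chr10:94407480-94407729, Sema3g on the plus strand at chr14:32030809-32031058 and Plxnb1 on the plus strand at chr9:108997700-108997949.
Plxnd1: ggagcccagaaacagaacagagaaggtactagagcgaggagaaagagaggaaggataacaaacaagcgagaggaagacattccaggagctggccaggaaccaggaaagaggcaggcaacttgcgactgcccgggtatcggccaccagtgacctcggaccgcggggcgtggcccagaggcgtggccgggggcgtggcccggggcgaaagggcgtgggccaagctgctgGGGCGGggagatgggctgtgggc
Sema3g: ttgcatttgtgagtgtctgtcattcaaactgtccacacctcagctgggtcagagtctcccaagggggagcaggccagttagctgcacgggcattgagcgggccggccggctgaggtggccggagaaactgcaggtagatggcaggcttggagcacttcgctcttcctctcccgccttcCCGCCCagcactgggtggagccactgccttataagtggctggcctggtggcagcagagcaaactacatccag
Plxnc1: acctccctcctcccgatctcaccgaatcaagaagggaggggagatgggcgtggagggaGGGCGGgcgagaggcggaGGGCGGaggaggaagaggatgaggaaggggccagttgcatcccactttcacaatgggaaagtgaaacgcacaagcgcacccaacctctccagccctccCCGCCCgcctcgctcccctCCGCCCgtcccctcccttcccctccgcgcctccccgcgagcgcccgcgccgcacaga
Plxnb1: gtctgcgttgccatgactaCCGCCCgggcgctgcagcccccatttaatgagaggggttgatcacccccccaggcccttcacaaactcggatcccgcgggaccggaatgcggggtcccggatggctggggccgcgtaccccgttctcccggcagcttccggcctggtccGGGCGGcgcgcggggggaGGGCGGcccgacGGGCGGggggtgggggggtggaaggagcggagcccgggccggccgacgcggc

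The upstream windows of the higher pair each hold 1 GC box and those of the lower pair each hold 4, while 32.7% of all 32851 promoters of this length in the table hold at least 1. Plxnd1 has 16 CG dinucleotides in the window, Sema3g 8, Plxnc1 22 and Plxnb1 30, against a median of 6 and an upper quartile of 16 over all promoters. None of the 4 windows has a match on either strand to CACGTG or CATGTG, the E-boxes bound by the melanocyte factor MITF, to TGACTCA, the AP-1 motif, or to TATAAA, the TATA box. These motifs occur in 6.02%, 12.3%, 4.46% and 12.4% of all promoters, respectively. These 4 are among the 5 called members with a single start site in the table. The fifth, Nrp2, which was higher in the variants, has 5 GC boxes and 32 CG dinucleotides in its window, so the number of GC boxes did not follow the direction over the 5. It is not printed because 32 of its bases lie inside the annotated gene, against 13 for Sema3g and 0 for the others. The table held 37 start sites for 26 of the members, and Plxna1, Plxna4, Sema3b, Sema3f and Sema6a had no entry.

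Levels are given in FPKM, fragments per kilobase of transcript and 1000000 mapped reads, a unit that adjusts for transcript length, so levels of different genes can be set side by side. The smallest steps in the values put the depth at an estimated 12600000 to 14700000 reads per library. A gene was tested if it reached 1 FPKM in 2 or more libraries, which left 11379. By limma, B16-F1R2 had 28.2% of these above and 27.2% below the parental level, with a threshold of 0.05 on the adjusted p. For B16-F1R2L against B16-F1 the shares were 29.5% and 27.1%, and for B16-F1R2L against B16-F1R2 12.1% and 10.5%. Of 9 melanocyte markers, 8 passed the same filter, Ednrb being the exception, and their summed level was 14972 to 15009 FPKM in B16-F1, 7909 to 8125 in B16-F1R2 and 8924 to 8934 in B16-F1R2L. Mlana, Pmel, Tyrp1 and Dct carried this sum, while Tyr went from 186 to 192 FPKM in B16-F1 to 14.2 to 25.1 in the variants and Mitf was at 92.3 and 88.7 for B16-F1, 79.5 and 83.6 for B16-F1R2, then 112 and 127 for B16-F1R2L. Of the Schwann cell markers, Mbp was at 94.6 to 95.6 FPKM in B16-F1 and 559 to 582 in the variants, and Ngfr at 0.0526 to 0.0748 and 6.57 to 10.5. Egr2 was at or near 0 in every library. The defining markers Ptprc, Cd3e, Itgam and Emr1 of leukocytes, Cdh5, Tek, Kdr and Cldn5 of blood endothelium, Lyve1 of lymphatic endothelium, Dcn, Lum and Thy1 of fibroblasts and Krt5 and Trp63 of keratinocytes were listed at 0 throughout. In the order of the lines, the summed level over the leukocyte list was 0.504 to 0.970, 0.945 to 1.24 and 1.50 to 2.05 FPKM. Lyz2, the lysozyme gene, alone of that list passed the filter, and it was at 0.170 and 0.625 FPKM for B16-F1, 0.916 and 1.17 for B16-F1R2, then 2.05 and 1.50 for B16-F1R2L. For blood endothelium the sum was at 0 in B16-F1, 0.752 to 0.758 in B16-F1R2 and 1.14 to 1.26 in B16-F1R2L, where Pecam1 alone passed. The sums for fibroblasts, where Postn alone passed, were 0.764 to 0.806, 1.13 to 1.30 and 1.11 to 1.18, and for keratinocytes 0.281 to 0.383, 0.338 to 0.444 and 0.503 to 0.578. Prox1 and Pdpn of the lymphatic list passed it, and the sum over that list was 11.6 to 12.9, 5.98 to 8.02 and 7.45 to 8.30 FPKM in the order of the lines. The part of these markers in the results that follow was not tested, and in bulk RNA fewer cells with a transcript and less of it per cell cannot be told apart.

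Of the 31 genes, 19 passed the filter and 12 stayed under it. In B16-F1R2 against B16-F1, 10 of the 19 were higher, namely Nrp2, Plxna4, Plxnd1, Sema3b, Sema3f, Sema3g, Sema4a, Sema4c, Sema4d and Sema6d, where 28.2% of all tested genes were higher. Plxna1, Plxnb1, Plxnc1 and Sema4b were lower, 4 of 19 where 27.2% of all genes were, and 5 did not pass the test. The median log2 fold change was 0.31 over the members and 0.0046 over all genes tested. In B16-F1R2L against B16-F1, a comparison that uses the same B16-F1 libraries, 10 were higher, beside 29.5% of all genes, and they were Nrp2, Plxna4, Plxnd1, Sema3b, Sema3f, Sema3g, Sema4a, Sema4c, Sema4d and Sema6d. Plxna1, Plxnb1, Plxnc1 and Sema6a were lower there, beside 27.1% of all genes, with a median of 0.41 against 0.017 over all genes. Sema3f, Sema3g and Sema4a reached 1 FPKM in the variants alone and Plxna4 in B16-F1R2L alone, so that they could enter the fit only by being higher there, and the counts over the 19 are therefore no evidence about the families as a whole.

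**Figure D1:**
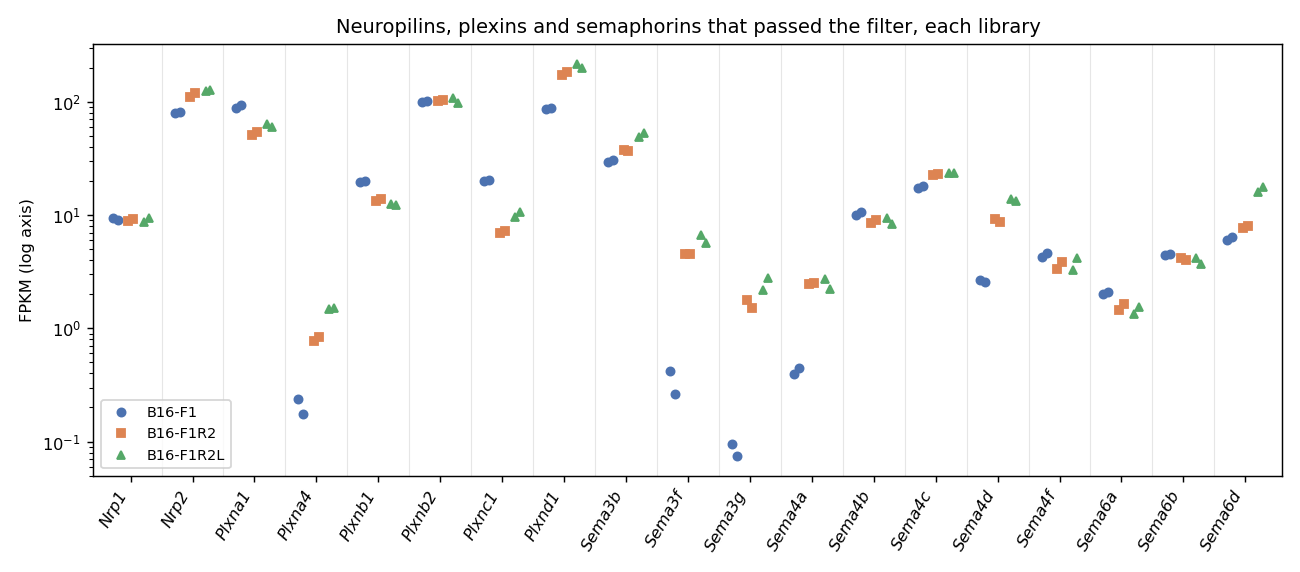
Level of the 19 genes that passed the filter, in FPKM on a log axis, with 1 point per library and the 2 libraries of each line side by side. Plxnd1, Nrp2 and Plxnb2 stood highest in the variants, and Sema3f, Sema3g, Sema4a and Plxna4 lay under 0.5 FPKM in both B16-F1 libraries.

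The neuropilins parted. Nrp1, the co-receptor of Sema3a and of VEGF-A, was at 9.51 and 9.08 FPKM for B16-F1, 8.93 and 9.30 for B16-F1R2, then 8.62 and 9.42 for B16-F1R2L. All 3 lines overlapped, and the log2 fold change from B16-F1 to B16-F1R2 was -0.027 with a 95% interval of -0.20 to 0.15. Nrp2, the co-receptor that Sema3f and Sema3g bind and that also takes up VEGF-C on lymphatic vessels, was at 80.6 and 82.1 FPKM for B16-F1, 110.3 and 118.7 for B16-F1R2, then 125.8 and 127.2 for B16-F1R2L. The lines did not overlap, and B16-F1 was the lowest. Nrp2 rose by 0.49 ± 0.05 (SE) on the log2 scale in B16-F1R2 (limma, adjusted p = 0.000282) and by 0.64 ± 0.05 in B16-F1R2L (adjusted p = 9.67e-05). Between the variants the difference was 0.14 (95% interval 0.030 to 0.26) and did not pass after adjustment (limma adjusted p = 0.0747). Nrp2 was the more abundant neuropilin in every library, 8.48 to 9.05 times the level of Nrp1 in B16-F1, 12.3 to 12.8 times in B16-F1R2 and 13.5 to 14.6 times in B16-F1R2L. Nrp2 (ENSMUSG00000025969.9) lies on chromosome 1 from 62749859 to 62865269 on the plus strand and has 7 annotated transcripts, which a level per gene does not separate.

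Among the plexins, Plxnd1 rose while Plxna1, Plxnb1 and Plxnc1 fell. Plxnd1, the receptor that Sema3e can bind without a neuropilin and that is best known from blood vessels, was at 86.7 and 88.4 FPKM in B16-F1. It stood at 173.7 and 185 FPKM in B16-F1R2 and at 218 and 199 in B16-F1R2L, with no overlap between the lines. The mean was 2.05 times that of B16-F1 in B16-F1R2, a log2 fold change of 1.03 ± 0.06 (SE, limma adjusted p = 3.14e-05), and 2.38 times in B16-F1R2L, a log2 fold change of 1.25 ± 0.06 (adjusted p = 1.36e-05). Plxnd1 (ENSMUSG00000030123.8) spans chromosome 6 from 115904829 to 115945023 on the minus strand, and its longest transcript has 36 exons.

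Plxna1, the main signalling partner of neuropilins for class 3 semaphorins and a receptor of Sema6d, was at 89.1 and 93.7 FPKM in B16-F1. It was at 50.9 and 54.8 FPKM in B16-F1R2, then 63.5 and 59.5 in B16-F1R2L, so that both variants lay under B16-F1. The gene fell by 0.79 ± 0.06 on the log2 scale in B16-F1R2 (limma adjusted p = 8.69e-05) and by 0.57 ± 0.06 in B16-F1R2L (adjusted p = 0.000334). Of its exon bases 10.7% overlap Gm16896 on the opposite strand. The libraries kept the strand of the RNA, but no source used here gives the strand setting of the counting, so that share is uncertain. In B16-F1 the ratio of Plxnd1 to Plxna1 was 0.944 to 0.974, near parity, and in the variants it was 3.38 to 3.41 and 3.34 to 3.44.

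Plxnc1, the receptor of Sema7a, showed the largest fall among the tested members. It was at 20.2 and 20.6 FPKM for B16-F1, 6.90 and 7.19 for B16-F1R2, then 9.72 and 10.6 for B16-F1R2L, and no line overlapped another. The log2 fold change was -1.52 ± 0.07 in B16-F1R2 (limma adjusted p = 1.19e-05), a mean at 0.346 of the B16-F1 mean, and -0.996 ± 0.07 in B16-F1R2L (adjusted p = 6.29e-05). Plxnb1, the receptor of Sema4d, was at 19.7 and 19.8 FPKM for B16-F1, 13.4 and 13.9 for B16-F1R2, then 12.5 and 12.2 for B16-F1R2L. Both variants were lower without overlap, by -0.53 ± 0.05 (adjusted p = 0.00029) and -0.68 ± 0.05 (adjusted p = 0.000106).

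Plxnb2, which binds Sema4c among others, did not pass the test in any comparison, at 99.0 and 101.3 FPKM for B16-F1, 102.4 and 103.1 for B16-F1R2, then 107.5 and 98.8 for B16-F1R2L. The log2 differences from B16-F1 were 0.036 and 0.041 in the variants, with 95% intervals of -0.086 to 0.16 and -0.081 to 0.16. Plxna4, a receptor of class 3 and class 6 semaphorins in neurons, was low at 0.237 and 0.175 FPKM for B16-F1, 0.775 and 0.840 for B16-F1R2, then 1.48 and 1.50 for B16-F1R2L. The order of the 3 lines held in every library. Its log2 fold change was 1.58 ± 0.22 in B16-F1R2 (limma adjusted p = 0.00126) and 2.38 ± 0.22 in B16-F1R2L (adjusted p = 0.000218), but in B16-F1R2 it turned to -0.32 after quantile normalization, and in B16-F1R2L it ran from 0.82 to 2.81 over the alternatives.

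**Figure D2:**
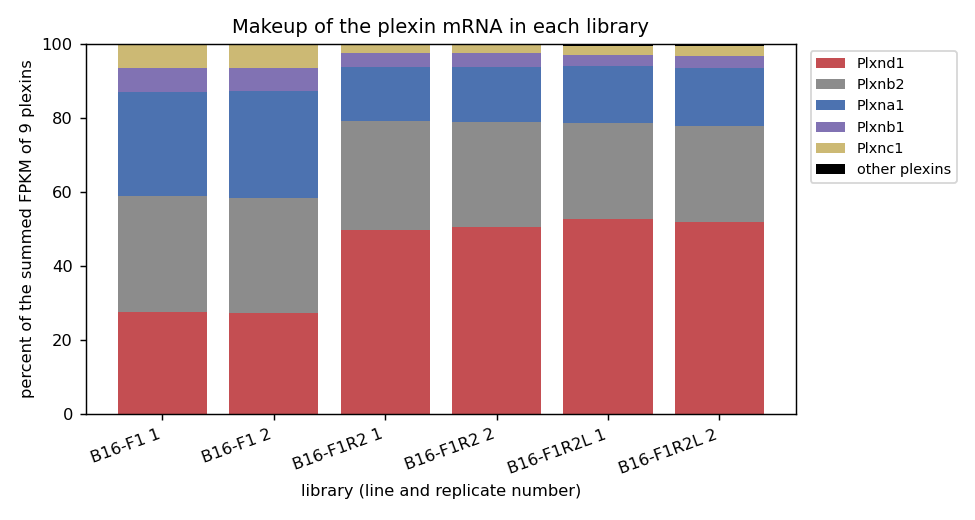
Share of each plexin in the summed FPKM of the 9 plexins, in percent, with 1 stacked bar per library starting at 0. Plxnd1 took 27.2 to 27.5% in B16-F1, 49.8 to 50.7% in B16-F1R2 and 52.0 to 52.8% in B16-F1R2L.

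The makeup of the plexin mRNA shifted with these levels. The summed level of the 9 plexins was 315 to 324 FPKM in B16-F1, 349 to 365 in B16-F1R2 and 382 to 413 in B16-F1R2L. Plxna1 held 28.2 to 28.9% of it in B16-F1, 14.6 to 15.0% in B16-F1R2 and 15.4 to 15.6% in B16-F1R2L. Plxnc1 went from 6.34 to 6.40% in B16-F1 to 1.97 to 1.98% and 2.35 to 2.78% in the variants, and Plxnb1 from 6.11 to 6.26% to 3.80 to 3.85% and 3.01 to 3.19%. B16-F1 thus had 3 plexins at nearly equal shares, Plxnb2, Plxna1 and Plxnd1, and the variants had Plxnd1 in the lead with Plxnb2 next.

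Of the 7 class 3 semaphorins, which are secreted ligands, Sema3b was tested on its level in all lines and was higher in the variants. Sema3f and Sema3g passed the filter through the variants alone and could be tested only because they were higher there, and the other 4 stayed under it. Sema3b, which has been described as a tumor suppressor in lung cancer, was the most abundant semaphorin at 29.2 and 30.6 FPKM for B16-F1, 37.5 and 36.5 for B16-F1R2, then 49.0 and 53.7 for B16-F1R2L. Each line stood above the last without overlap. Sema3b rose by 0.31 ± 0.06 on the log2 scale in B16-F1R2 (limma adjusted p = 0.00478) and by 0.78 ± 0.06 in B16-F1R2L (adjusted p = 9.67e-05).

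Sema3f, a ligand of Nrp2 that repels lymphatic and blood endothelial cells, was at 0.417 and 0.262 FPKM for B16-F1, 4.57 and 4.52 for B16-F1R2, then 6.63 and 5.70 for B16-F1R2L. The B16-F1 values correspond to an estimated 19.2 and 11.5 reads, against 217 and 230 in B16-F1R2. The log2 fold change was 3.42 ± 0.19 in B16-F1R2 (limma adjusted p = 3.00e-05) and 3.85 ± 0.19 in B16-F1R2L (adjusted p = 1.76e-05), and the means stood 13.4 and 18.1 times above B16-F1. Over the alternative settings the value for B16-F1R2 ran from 2.05 to 3.74 and that for B16-F1R2L from 2.42 to 4.17.

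Sema3g, a Nrp2 ligand made by endothelial cells in the normal body, was at 0.0944 and 0.0745 FPKM in B16-F1, an estimated 5.66 and 4.25 reads. It was at 1.79 and 1.50 FPKM in B16-F1R2, then 2.20 and 2.76 in B16-F1R2L, so that both variants lay far above B16-F1. The log2 fold change was 3.24 ± 0.21 in B16-F1R2 (limma adjusted p = 5.65e-05), with 1.28 to 4.13 over the alternatives, and 3.80 ± 0.21 in B16-F1R2L (adjusted p = 2.96e-05), with 1.68 to 4.72. Summed over the 7 class 3 genes, the level was 30.9 to 32.1 FPKM in B16-F1, 43.8 to 45.1 in B16-F1R2 and 59.3 to 63.6 in B16-F1R2L. Sema3b made up 94.6 to 95.3% of it in B16-F1, and in the variants 83.2 to 83.4% and 82.5 to 84.4%, where Sema3f took 10.1 to 10.3% and 8.96 to 11.2%.

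Sema3b and Sema3f are neighbours. Sema3b (ENSMUSG00000057969.8) lies on chromosome 9 from 107500005 to 107511560 and Sema3f (ENSMUSG00000034684.6) from 107583833 to 107612806, both on the minus strand, with 72272 bases and 3 annotated genes between them. Of these, Slc38a3, a glutamine transporter, was at 0.174 and 0.328 FPKM for B16-F1, 5.90 and 6.15 for B16-F1R2, then 8.21 and 7.96 for B16-F1R2L, a log2 fold change of 4.16 in B16-F1R2 (limma adjusted p = 1.94e-05). Slc38a3 reached 1 FPKM in the variants alone and could be tested only because it was higher there. Gnai2, a G protein subunit, was at 276 and 271 FPKM for B16-F1 and 196 and 187 for B16-F1R2, a log2 fold change of -0.52 (adjusted p = 0.000305). Gnat1 was listed at 0 in 5 libraries and at 0.0299 FPKM in the other. In B16-F1R2, Sema3b, Slc38a3 and Sema3f were called higher and Gnai2 lower. A shared change of this stretch was not tested.

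Of the membrane-bound class 4 semaphorins, Sema4c and Sema4d rose in both variants. Sema4a also passed the test there, but it reached 1 FPKM in the variants alone and could be tested only because it was higher in them. Sema4d, the ligand of Plxnb1 and, on lymphocytes, of Cd72, was at 2.67 and 2.56 FPKM for B16-F1, 9.30 and 8.70 for B16-F1R2, then 13.8 and 13.3 for B16-F1R2L. The 3 lines did not overlap. Its log2 fold change was 1.74 ± 0.07 in B16-F1R2 (limma adjusted p = 1.00e-05) and 2.33 ± 0.07 in B16-F1R2L (adjusted p = 3.09e-06), or 3.44 and 5.18 times the B16-F1 mean. Sema4d held 6.91 to 7.54% of the summed class 4 FPKM in B16-F1, 18.2 to 20.0% in B16-F1R2 and 25.5 to 25.9% in B16-F1R2L.

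Sema4c, a ligand of Plxnb2 and the most abundant of the class, was at 17.3 and 18.1 FPKM for B16-F1, 22.4 and 23.2 for B16-F1R2, then 23.7 and 23.4 for B16-F1R2L. Both variants lay above B16-F1, by 0.36 ± 0.05 (limma adjusted p = 0.00136) and 0.41 ± 0.05 (adjusted p = 0.000807) on the log2 scale. Sema4a, known from T cell priming and the retina, was at 0.393 and 0.446 FPKM in B16-F1, an estimated 16.6 and 18.0 reads, at 2.47 and 2.51 in B16-F1R2 and at 2.75 and 2.23 in B16-F1R2L. The variants overlapped each other and not B16-F1, with log2 fold changes of 2.32 ± 0.16 (adjusted p = 7.66e-05) and 2.31 ± 0.16 (adjusted p = 7.51e-05). Over the alternative settings these ran from 1.30 to 2.54 and from 1.27 to 2.54.

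Sema4b, a synaptic class 4 semaphorin, was at 10.1 and 10.7 FPKM for B16-F1, 8.53 and 9.05 for B16-F1R2, then 9.36 and 8.33 for B16-F1R2L. It was lower in B16-F1R2 by -0.24 ± 0.08 (limma adjusted p = 0.0467), a call that held in 8 of 17 alternatives and was lost without any 1 of the 4 libraries compared (adjusted p = 0.0821 to 0.209), and in B16-F1R2L the value was -0.23 (adjusted p = 0.0504). Sema4f, described in Schwann cells and at synapses, was at 4.28 and 4.66 FPKM for B16-F1, 3.34 and 3.85 for B16-F1R2, then 3.30 and 4.18 for B16-F1R2L, with a log2 fold change of -0.31 in B16-F1R2 (95% interval -0.65 to 0.030) that did not pass the test.

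Sema6d, a transmembrane ligand of Plxna1, set B16-F1R2L apart from both other lines. It was at 6.06 and 6.39 FPKM for B16-F1, 7.77 and 8.07 for B16-F1R2, then 15.9 and 17.7 for B16-F1R2L, where the first pair of lines lay close together and the last one lay far above. The log2 fold change was 1.42 ± 0.08 in B16-F1R2L against B16-F1 (limma adjusted p = 2.58e-05) and 1.07 ± 0.08 against B16-F1R2 (adjusted p = 0.00139), and the latter call was kept in 17 of 17 alternatives. In B16-F1R2 against B16-F1 it was 0.34 ± 0.08 (adjusted p = 0.00943), which was lost without B16-F1 library 1 (adjusted p = 0.0585) or B16-F1R2 library 2 (adjusted p = 0.0518). Sema6d made up 47.8 to 48.6% of the summed class 6 FPKM in B16-F1, 57.5 to 58.0% in B16-F1R2 and 73.9 to 76.7% in B16-F1R2L. Sema6d (ENSMUSG00000027200.11) spans chromosome 2 from 123915705 to 124493506 on the plus strand with 11 annotated transcripts, and its 2 start sites in the promoter table lie far apart, so a level per gene does not tell which was used.

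Of the other class 6 genes, Sema6a passed the test in 1 comparison. Sema6a, a ligand of Plxna2 and Plxna4, was at 2.01 and 2.08 FPKM for B16-F1, 1.47 and 1.64 for B16-F1R2, then 1.34 and 1.54 for B16-F1R2L. It was lower in B16-F1R2L by -0.48 ± 0.14 (limma adjusted p = 0.027), a call lost without either B16-F1 library (adjusted p = 0.0746 and 0.101) or without B16-F1R2L library 1 (adjusted p = 0.101), and in B16-F1R2 the value was -0.38 (adjusted p = 0.0612). Over the alternatives the value for B16-F1R2L ran from -1.07 to -0.32. Sema6b was at 4.48 and 4.54 FPKM for B16-F1, 4.14 and 4.04 for B16-F1R2, then 4.15 and 3.72 for B16-F1R2L, with log2 fold changes of -0.14 and -0.19 that did not pass the test.

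**Figure D3:**
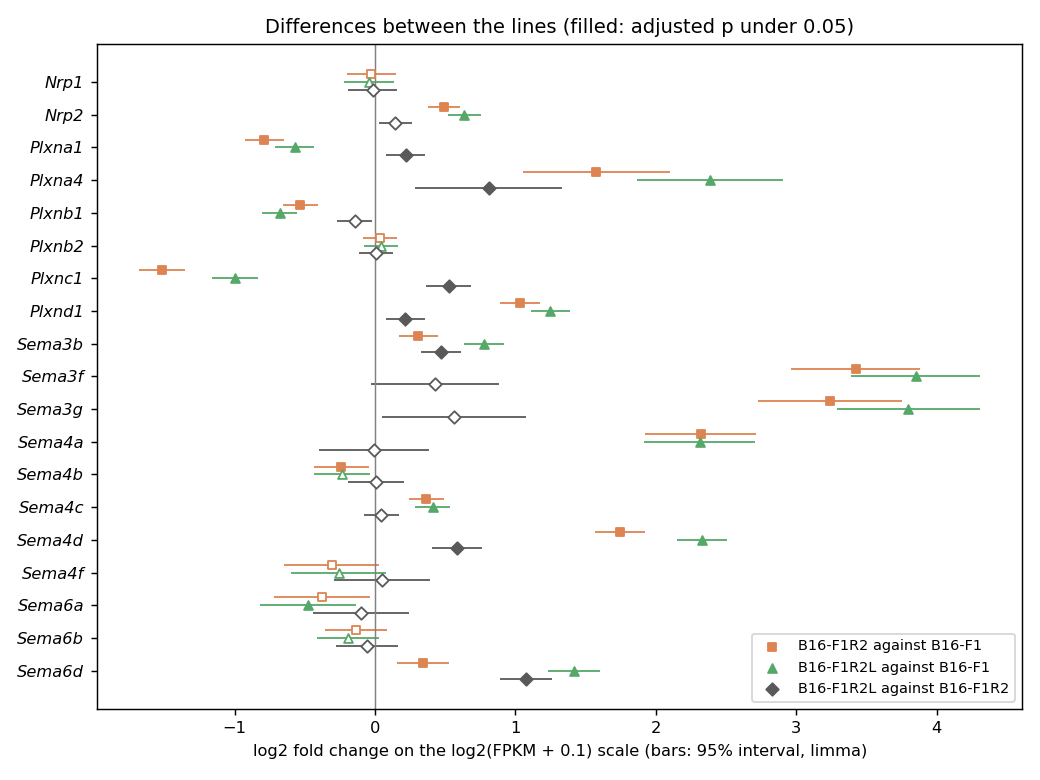
Log2 fold change of the 19 tested genes in the 3 comparisons, on the log2(FPKM + 0.1) scale, with 95% intervals from limma and filled symbols where the adjusted p was under 0.05. Against B16-F1 the values ran from -1.52 for Plxnc1 in B16-F1R2 to 3.85 for Sema3f in B16-F1R2L, and between the variants Sema6d lay farthest from 0 at 1.07.

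Between the variants, 7 of the 19 genes were higher in B16-F1R2L than in B16-F1R2, where 12.1% of all tested genes were. They were Plxna1, Plxna4, Plxnc1, Plxnd1, Sema3b, Sema4d and Sema6d, and the median log2 fold change of the members was 0.14 against 0.022 over all genes. Plxna4 entered the fit through B16-F1R2L alone, so it could be tested here only because it was higher in that line, and the count is no evidence about the families. By limma 0 were lower, beside 10.5% of all genes, with 1, Plxnb1 at -0.15, lower at an unadjusted p under 0.05. With each library rescaled to 1 sum, the median over all genes went from 0.022 to 0.13 in this comparison and from 0.017 to 0.12 in B16-F1R2L against B16-F1, and the share of higher genes among all called genes from 53.7% to 81.0% between the variants and from 52.1% to 66.6% against B16-F1. Beside Sema6d the larger differences were Sema4d at 0.59 ± 0.07 (adjusted p = 0.00672), Plxnc1 at 0.52 ± 0.07 (adjusted p = 0.00704) and Sema3b at 0.47 ± 0.06 (adjusted p = 0.00656). Plxnc1 lost its call without B16-F1R2 library 1 (adjusted p = 0.0506). For Plxnc1 and Plxna1 the level in B16-F1R2L lay between those of the other lines, whereas for Plxnd1, Sema3b, Sema4d and Sema6d it lay above both.

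The calls for Plxna1, Plxnd1 and Plxna4 between the variants were the least firm. Plxna1 and Plxnd1 differed by 0.22 each (adjusted p = 0.0412 and 0.0434), and both calls were kept in 5 of 17 alternatives. Leaving out any 1 of the 6 libraries ended both, with adjusted p from 0.0615 to 0.179 for Plxna1 and from 0.0559 to 0.183 for Plxnd1. Plxna4, tested only because of its level in B16-F1R2L, differed by 0.81 ± 0.22 (adjusted p = 0.0427), and the call was lost without any 1 of the 4 variant libraries (adjusted p = 0.102 to 0.16). Leaving out 1 library at a time gave 3 to 5 members called higher.

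The 12 genes under the filter lay between 0 and 0.920 FPKM in every library. Plxna2 and Sema5a were at or near 0, with at most 0.00647 FPKM, and Sema5b and Sema6c reached 0.104 and 0.175. Plxna3, a partner of neuropilins for Sema3f, ran from 0.296 to 0.452, Plxnb3 from 0.0146 to 0.233 and Sema4g from 0.367 to 0.760 FPKM. Sema7a, the membrane-anchored ligand of Plxnc1, was at 0.920 and 0.700 FPKM for B16-F1, 0.431 and 0.669 for B16-F1R2, then 0.707 and 0.891 for B16-F1R2L, so that B16-F1R2 was the lowest and the other lines overlapped.

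The remaining secreted ligands were low as well. Sema3a, the collapsin that repels axons through Nrp1, was at 0 and 0.0327 FPKM in B16-F1, at most an estimated 2.44 reads, at 0.402 and 0.392 in B16-F1R2 and at 0.697 and 0.709 in B16-F1R2L. Sema3d was at 0.0868 and 0.0699 FPKM in B16-F1 and between 0.224 and 0.374 in the variants. Sema3e, the ligand of Plxnd1, went the other way, at 0.716 and 0.722 FPKM for B16-F1, 0.301 and 0.346 for B16-F1R2, then 0.384 and 0.409 for B16-F1R2L. Sema3c was at 0.346 and 0.345 FPKM for B16-F1, 0.130 and 0.227 for B16-F1R2, then 0.151 and 0.141 for B16-F1R2L.

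In a fit over 16483 genes without the filter, the adjusted p for B16-F1R2 and B16-F1R2L against B16-F1 was 0.00129 and 0.000554 for Sema3a, 0.00774 and 0.015 for Sema3d and 0.00852 and 0.0205 for Sema3e. In B16-F1R2L against B16-F1 that fit also gave an adjusted p of 0.0298 for Sema3c, which was lower, and 0.0108 for Plxnb3, which was higher. At levels of this size 1 read was worth an estimated 0.00541 to 0.0248 FPKM, depending on the gene and library, so the values rest on few reads.

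**Figure D4:**
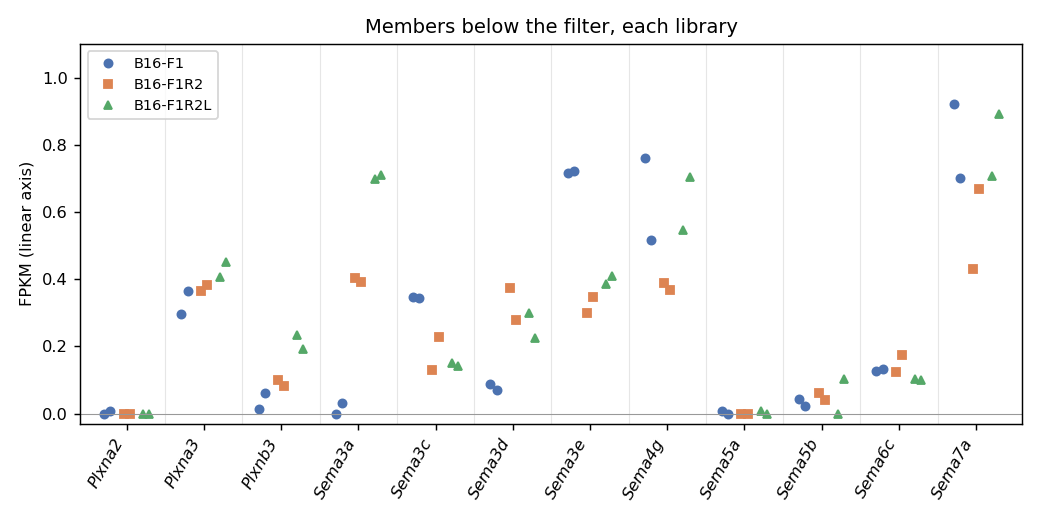
Level of the 12 genes under the filter, in FPKM on a linear axis, with 1 point per library and the 3 lines in separate symbols. Both B16-F1 libraries lay under the variants for Sema3a and Sema3d, and above them for Sema3e and Sema3c.

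Ligands and their known receptors can be set side by side. Plxnd1 rose in both variants, and its ligand Sema3e was lower in the fit without the filter, at 0.722 FPKM or less in every library. Sema4d rose, while of its receptors Plxnb1 fell and Cd72 rose. Sema4c rose, and its receptor Plxnb2 did not pass the test. Plxnc1 fell, and its ligand Sema7a stayed under 1 FPKM. Nrp2 and its ligands Sema3f and Sema3g were called higher in both variants, the ligands having passed the filter through the variants alone. Plxna3, a partner for Sema3f, stayed under 1 FPKM. Sema6d rose, and its receptor Plxna1 fell. Sema6a was lower in B16-F1R2L, where its receptor Plxna2 was at or near 0. Plxna4, also a receptor of Sema6a, was called higher in that line, having passed the filter through B16-F1R2L alone. These are levels of mRNA, and no binding or signalling was measured.

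Beyond the receptors and ligands, 63 genes of semaphorin signalling were listed by role, and 48 of them passed the filter. In B16-F1R2 against B16-F1, 12 were higher and 22 lower, where 28.2% and 27.2% of all tested genes were, and the median log2 fold change was -0.18 against 0.0046 over all genes. Fes and Mst1r reached 1 FPKM in the variants alone and could be tested only because they were higher there. In B16-F1R2L against B16-F1, 15 were higher and 19 lower, beside 29.5% and 27.1% of all genes, with a median of 0.0042 against 0.017. Between the variants 12 were higher and 3 lower, beside 12.1% and 10.5%, with a median of 0.071 against 0.022. By role the counts are small and are given as a description, to be read against the same 28.2% and 27.2%. Of the 21 plexin effectors tested, 5 rose and 11 fell from B16-F1 to B16-F1R2, and of 9 co-receptors and alternative receptors 2 were higher and 3 lower. The collapsin response mediators, their kinases and the actin regulators had 4 of 9 higher and 4 lower. Of 6 proteases none was higher and 2, Furin and Mmp14, were lower, and of the 3 VEGF genes tested Vegfa was higher and Vegfb and Vegfc were lower. In B16-F1R2L against B16-F1 the plexin effectors had 7 higher and 9 lower, beside 29.5% and 27.1% of all genes. Their median log2 fold change was -0.0010 in B16-F1R2L and -0.31 in B16-F1R2.

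Of the 4 largest rises in this list, those of Fes and Mst1r began at or near 0. Fes, a tyrosine kinase that acts downstream of plexin A1, was at 0.0312 and 0.0324 FPKM for B16-F1, 5.78 and 5.76 for B16-F1R2, then 5.17 and 5.62 for B16-F1R2L (limma adjusted p = 1.41e-06 for B16-F1R2). Mst1r, the RON receptor kinase that associates with B plexins, was listed at 0 in both B16-F1 libraries, at 3.27 and 3.80 FPKM in B16-F1R2 and at 5.48 and 6.96 in B16-F1R2L (adjusted p = 5.20e-06). Cd72, the receptor of Sema4d on B cells, was at 2.98 and 3.27 FPKM for B16-F1, 24.5 and 27.0 for B16-F1R2, then 30.0 and 32.9 for B16-F1R2L, a log2 fold change of 3.003 ± 0.08 (adjusted p = 2.19e-06). Both B16-F1 libraries lay under the variants for Cd72. Fes and Mst1r passed the filter through the variants alone, so a lack of overlap with B16-F1 carries no weight for them. Crmp1, a cytosolic mediator of the collapse response, was at 6.95 and 7.13 FPKM for B16-F1, 33.0 and 31.7 for B16-F1R2, then 33.1 and 29.4 for B16-F1R2L, a log2 fold change of 2.19 ± 0.07 (adjusted p = 3.10e-06).

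The largest fall was that of Met, the receptor of hepatocyte growth factor that Plxnb1 can activate on Sema4d binding. Met was at 146 and 147 FPKM for B16-F1, 34.5 and 34.7 for B16-F1R2, then 43.0 and 45.8 for B16-F1R2L, a log2 fold change of -2.08 ± 0.05 in B16-F1R2 (limma adjusted p = 9.44e-07) and -1.72 ± 0.05 in B16-F1R2L (adjusted p = 1.83e-06). Mical3, of the MICAL oxidoreductases that act on actin, was at 28.9 and 29.0 FPKM for B16-F1 and 11.8 and 11.6 for B16-F1R2, a change of -1.30 ± 0.06 (adjusted p = 1.17e-05). Between the variants, Met was higher in B16-F1R2L by 0.36 (adjusted p = 0.00701), as was Mical3 by 0.32 (adjusted p = 0.0153), a call lost without either B16-F1R2 library (adjusted p = 0.0705 and 0.0635). Dpysl3, a relative of Crmp1, was at 16.2 and 15.9 FPKM for B16-F1, 6.55 and 6.43 for B16-F1R2, then 4.73 and 4.88 for B16-F1R2L, a change of -1.29 ± 0.06 in B16-F1R2 (adjusted p = 1.81e-05). Farp1, a guanine exchange factor that works with class A plexins, fell by 0.64 ± 0.11 on the log2 scale (adjusted p = 0.00359). Crmp1 and Dpysl3, members of 1 protein family, thus moved in opposite directions.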

How the data were processed

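RNA was measured in 6 libraries, 2 for each of the 3 lines, grouped by the cell line given in the labels. The authors prepared stranded libraries of polyadenylated RNA, sequenced them on an Illumina instrument and, per the submitters' processing notes, used FastQC 0.10.1, TopHat2 2.0.10, Bowtie 1.0.0 and SAMtools 0.1.1.9 on mm9. Cuffnorm is named there too. The authors deposited FPKM values per gene and library, with no pooling. Which gene annotation and strand setting they counted with is not given in the sources used here. FPKM are not counts, so a count test was not used.

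The values were tested as log2(FPKM + 0.1) with limma 3.58.1 in R 4.3.3, over 11379 of 23951 genes, those that reached 1 FPKM in 2 or more libraries. All 6 libraries entered 1 fit with moderated variances that follow the mean level, the p-values are two-sided with Benjamini-Hochberg adjustment over all tested genes, and the threshold was 0.05. An exact permutation test of 2 against 2 libraries cannot go under p = 0.333. For low genes this scale gives smaller fold changes than the FPKM themselves. The fit was tested on simulated data. Alternatives were a pseudocount of 1 or 0.01, no filter or a filter of 5 FPKM, 3 other scalings, variances without a trend, only the 4 libraries compared, a replicate block, a log2 fold change of at least 1 and each library left out.

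The families, the pathway list and the marker lists were chosen with earlier results of these data known. 2 genes of the marker lists are not reported here. All members were described, those above the filter with the value in every library, and from the pathway list up to 4 called genes a direction were named, those that differed most between B16-F1R2 and B16-F1. Gene positions came from GENCODE vM1 on NCBIM37, start regions from RefSeq. At most 0.599% of the 50-base words of a member's transcripts occur in those of another gene. The depth was estimated from the FPKM that 1 read is worth in genes with 1 transcript of known length. The libraries are separate samples by their labels, and within a line their median absolute difference over the tested genes was 0.0669, 0.0852 and 0.0951 on the log2 scale for B16-F1, B16-F1R2 and B16-F1R2L.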

Additional observations from a re-analysis of the deposited data

Results flagged for a closer look

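For 7 genes the change from B16-F1 was not the same size in the 2 variants, as tested by the difference between B16-F1R2L and B16-F1R2 in limma. On the log2 scale the change in B16-F1R2L minus that in B16-F1R2 was 1.07 for Sema6d, 0.81 for Plxna4, 0.59 for Sema4d, 0.52 for Plxnc1, 0.47 for Sema3b, 0.22 for Plxna1 and 0.22 for Plxnd1. Plxnd1, Plxna4, Sema3b, Sema4d and Sema6d had larger rises in B16-F1R2L, and Plxna1 and Plxnc1 smaller falls. The calls for Plxna1 and Plxnd1 were lost without any 1 of the 6 libraries (adjusted p = 0.0559 to 0.183), that for Plxna4 without any 1 of the 4 variant libraries (adjusted p = 0.102 to 0.16) and that for Plxnc1 without B16-F1R2 replicate 1 (adjusted p = 0.0506), and the replicate block also ended those for Plxna1, Plxna4 and Plxnd1. Plxna4 passed the filter on low values through B16-F1R2L alone and could be tested only because it was higher there. Both changes are taken against the same B16-F1 libraries. No group had enough libraries to look for a single outlying one.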

How the results depend on the processing

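Over the alternatives, the 19 tested members gave 317 values per comparison. Direction and call were kept in 292 of them for B16-F1R2 against B16-F1, 295 for B16-F1R2L against B16-F1 and 261 between the variants, and 3, 3 and 17 changed sign (counted with leave-one-out fits). Where a log2 fold change of 1 or more was also asked for, 6 members were higher and 1 lower in B16-F1R2, 0 lower in B16-F1R2L against B16-F1, and 1 higher between the variants, by construction. Without the filter 4 members were higher between the variants, where more genes were tested. Quantile normalization gave 7 lower members in B16-F1R2L against B16-F1 and 1 lower between the variants, and the cause was not tested. Leaving out 1 library gave 3 to 5 higher members between the variants (7 with all libraries), where the lone library of a line is assumed to vary like the others. The replicate numbers did not pair the libraries (correlations of 0.052, -0.102 and 0.079 between lines), and the replicate block gave 4 higher members between the variants and changed the calls of Sema4b and Sema4f in B16-F1R2 against B16-F1 and of Plxna1, Plxna4 and Plxnd1 between the variants, and of Cd72 among the pathway genes. Signs turned mostly for values near 0, those of the pathway genes Fes, Crmp1 and Farp1 between the variants included. In fits without 1 library, Nrp1 ran from -0.060 to 0.0059 in B16-F1R2 against B16-F1, from -0.11 to 0.020 in B16-F1R2L against B16-F1 and from -0.0789 to 0.047 between the variants, and Plxnb2 from -0.020 to 0.10 in B16-F1R2L against B16-F1 and from -0.056 to 0.065 between the variants. Between the variants such fits gave -0.15 to 0.14 for Sema4a, -0.076 to 0.090 for Sema4b, -0.12 to 0.22 for Sema4f, -0.13 to 0.020 for Sema6b, -0.14 to 0.031 for Crmp1 and -0.16 to 0.14 for Farp1. Rescaling turned Nrp1 to 0.059 in B16-F1R2L against B16-F1, and between the variants Nrp1 to 0.092, Sema4a to 0.098, Sema6b to 0.050, Fes to 0.010, Crmp1 to 0.055 and Farp1 to 0.095. Median-ratio scaling turned Plxnb2 to -0.016 and Sema4b to -0.013 between the variants. Quantile normalization turned Sema4b to -0.081 and Sema4f to -0.094 there, and Plxna4 to -0.32 in B16-F1R2 against B16-F1. With 2 libraries a line and no counts, changes of genes under about 1 FPKM rest on few reads.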
